A study of Ovis aries with 2 samples.

Results

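Barcodes whose counted RNA came to 10% or more from the mitochondrial genome were examined in single-cell libraries of sheep embryos at embryonic day 16. A barcode is the tag that marks the RNA of a droplet, and each counted molecule carries a unique molecular identifier (UMI). The members were chosen by that measured share, as all barcodes with at least 200 genes detected and with 10% or more of their UMIs on gene symbols that start with MT-. They numbered 1507 of the 16061 Ujumqin barcodes with at least 200 genes (9.38%, 95% interval 8.94 to 9.84%) and 973 of 10556 Hulunbuir barcodes (9.22%, interval 8.67 to 9.79%). Together they were 2480 of 26617 such barcodes, out of 27768 in the files. The other barcodes with at least 200 genes, 14554 and 9583, are called the rest. The study compared embryos of Ujumqin and Hulunbuir sheep, which were freed of extraembryonic tissue, dissociated, treated to lyse red blood cells and pooled within a breed, so single embryos cannot be told apart. The ewes of both breeds had received progesterone sponges and PMSG, a gonadotropin, before mating. There was 1 library per breed, so differences between breeds lack replicates, no test was run, and all intervals cover counting error only. The libraries held 212933364 UMIs (Ujumqin) and 131385353 UMIs (Hulunbuir), and 61 barcode sequences occurred in both, of which 2 were members in Ujumqin and 7 in Hulunbuir.

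The mitochondrial genome encodes a small set of subunits of the respiratory chain and ATP synthase, together with the ribosomal and transfer RNAs that mitochondria need to translate them. All other subunits, and the proteins of the mitochondrial ribosome, are encoded in the nucleus, made in the cytosol and imported. In droplet data a high mitochondrial share is known from cells rich in mitochondria and from damaged cells that have lost cytosolic RNA, and such barcodes are commonly removed before cells are classed, as the study did at the same limit. Which of these holds for the members was not tested, and neither was the part of free RNA.

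Because the rule used the mitochondrial share, that share and all values of these barcodes are given as descriptions. The members had a median mitochondrial share of 19.4% in Ujumqin, with a range of 10.0 to 59.5%. In Hulunbuir the median was 28.6% and the range 10.0 to 62.3%. The rest had medians of 1.99% and 3.53%. No gap separated members from the rest. The last Ujumqin barcode outside the limit had 9.98% and the first inside had 10.0%, with 127 barcodes between 9 and 10% and 119 between 10 and 11%. In Hulunbuir the values on either side were 9.98 and 10.0%, and these intervals held 64 and 49 barcodes. A share of 50% or more was found in 37 Ujumqin and 93 Hulunbuir members.

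**Figure D1:**
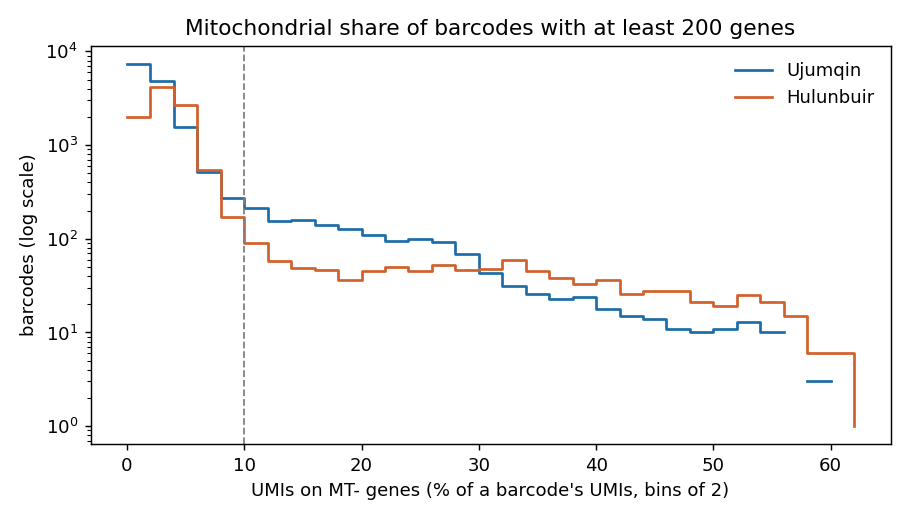
Number of barcodes with at least 200 genes (log scale) by the percent of their UMIs on MT- genes, in bins of 2 percentage points, for each library; the dashed line marks 10%, and a break in a line is a bin with no barcode. Both distributions fall without a gap through the limit, and the Hulunbuir line changes little from 12 to 34%.

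The members were shallow. Outside the MT- genes they had a median of 840 UMIs in Ujumqin against 9252.5 in the rest, and 958 against 11401 in Hulunbuir. Their number of mitochondrial UMIs, by contrast, was close to that of the rest, with medians of 269 against 232 in Ujumqin and 484 against 448 in Hulunbuir. The members thus carried about as many mitochondrial molecules as other barcodes beside far fewer others. The rule favours barcodes with few other UMIs. The median number of genes was 307 against 1247 in Ujumqin and 431 against 2180 in Hulunbuir. Once every barcode was thinned to 500 UMIs outside the MT- genes, the members had 207 genes against 231 in Ujumqin and 281 against 299 in Hulunbuir, with 131 and 133 members too shallow to enter. Thinned to 1000 UMIs, which left out 894 and 508 members, the values were 340 against 352 and 485 against 486.

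The share of members changed with depth in both libraries. Among barcodes with under 1000 UMIs outside the MT- genes, 20.8% were members in Ujumqin (894 of 4303) and 49.6% in Hulunbuir (508 of 1025). Among barcodes with 10000 or more, 0.125% (9 of 7182) and 0.513% (28 of 5457) were. The order held at each step between these bins. Barcodes with fewer than 200 genes, which the rule leaves out, were at 10% or more in 981 of 998 cases in Ujumqin and in 153 of 153 in Hulunbuir, with a median mitochondrial share of 28.9 and 48.6%. The 5% of members with the most UMIs outside the MT- genes (76 and 49 barcodes) held 24.6% of the members' UMIs in Ujumqin and 32.9% in Hulunbuir, so sums over members lean on them.

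**Figure D2:**
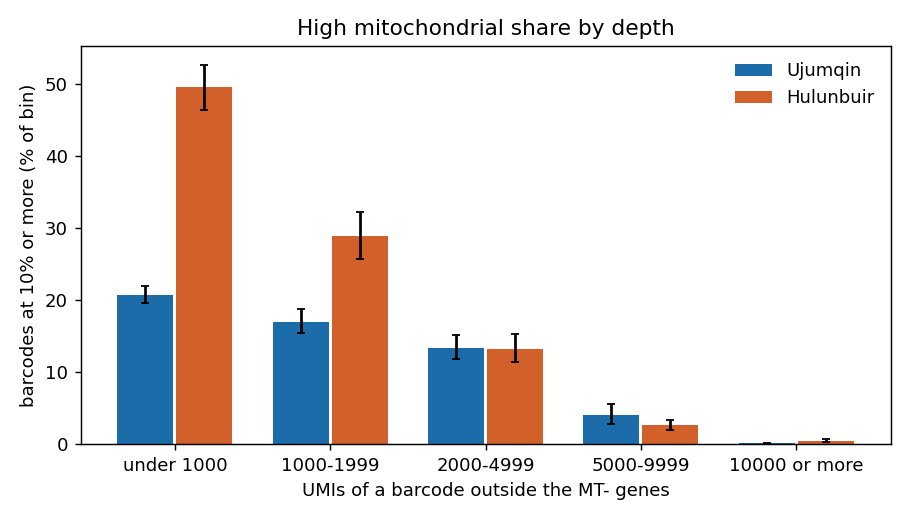
Percent of barcodes with at least 200 genes that had 10% or more of their UMIs on MT- genes (bars, with exact binomial 95% intervals), by the number of UMIs outside the MT- genes, for each library. The bars are lower in each deeper bin, from 20.8 to 0.125% in Ujumqin and from 49.6 to 0.513% in Hulunbuir.

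The mix of mitochondrial transcripts was nearly the same in members and in the rest. The files hold 11 MT- genes. The largest parts of the members' mitochondrial UMIs were MT-CYTB, a subunit of complex III, at 19.7% in both libraries, MT-ND4 of complex I at 17.9% in Ujumqin and 18.5% in Hulunbuir, and MT-ND2 of complex I at 17.5 and 20.1%. In the rest, MT-CYTB had 22.5% in Ujumqin and 20.5% in Hulunbuir. MT-ATP6, a subunit of ATP synthase, had a larger part in members than in the rest in both libraries, 14.3 against 12.4% and 12.6 against 10.5%. MT-COX1 of complex IV had a smaller part, 6.20 against 7.11% and 3.53 against 3.92%. MT-ND6, the subunit encoded on the other strand, was the least counted gene, with 0.157 and 0.128% in members. The genes with a larger part in members than in the rest gained 3.85 percentage points of the mix in total in Ujumqin and 2.90 in Hulunbuir, and the others lost as much. Relative to the UMIs outside the MT- genes, every MT- gene was higher in members, by 3.04 to 3.58 on the log2 scale in Ujumqin and by 2.76 to 3.19 in Hulunbuir, which the rule sets.

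A pair of features without a symbol moved with the MT- genes. Levels are given in UPM, the UMIs of a gene per 1000000 UMIs outside the MT- genes, summed over the barcodes of a group. ENSOARG00020000003 had a level of 50731 UPM in Ujumqin members and 4301 in the rest (log2 ratio 3.56, interval 3.55 to 3.57), and 55180 against 5577 in Hulunbuir (log2 3.31, interval 3.30 to 3.32). ENSOARG00020000005 had 75288 against 4877 in Ujumqin (log2 3.95) and 67576 against 4969 in Hulunbuir (log2 3.77). The deposited lists of features place them shortly before MT-ND1, and no table used here gives them a name. Together they made up 12.6% of the members' remaining UMIs in Ujumqin and 12.3% in Hulunbuir, against 0.918 and 1.05% in the rest. Over single members the percent of remaining UMIs on the pair had a median of 11.9% in Ujumqin and 19.1% in Hulunbuir. It followed the mitochondrial share, with a Spearman rho of 0.87 over 1507 Ujumqin members and 0.93 over 973 Hulunbuir members when each share was taken without the other, a description over barcodes that share a library. Counted as mitochondrial, the pair would bring the members to 2034 barcodes (12.7%) and 1249 barcodes (11.8%). Since the pair fills the total, leaving it out raises every other log2 ratio by 0.181 in Ujumqin and 0.174 in Hulunbuir. A log2 ratio below 0 by less than that is above 0 without the pair.

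Ratios of all other genes are members over the rest of the same library. A feature was compared when it reached 10 UPM in either group and was called at a 2-fold ratio. In Ujumqin 934 of 4482 features (20.8%) were at least 2-fold higher in members and 36 (0.803%) at least 2-fold lower. In Hulunbuir 590 of 5274 (11.2%) were higher and 35 (0.664%) lower. The median log2 ratio of all features compared was 0.22 and 0.029. Much of the excess of higher features came through the minimum level. Of the higher features, 610 of 934 and 352 of 590 reached it only in the members. Among the 3539 and 4553 features that reached it in the rest, 324 (9.16%) and 238 (5.23%) were higher, with medians of 0.012 and -0.069. The call rule places every lower feature among them. Of the 36 and 35 lower features, 19 and 21 reached the minimum only in the rest. Of 4233 features compared in both libraries, 285 were higher in both and 5 lower in both, and 0 were called in opposite directions. Among these 4233 features, 788 were higher in Ujumqin and 372 in Hulunbuir. The 285 were 36.2% of the 788 and 76.6% of the 372.

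Genes of the vessel lining stood out, and a small number of members carried them. PECAM1, an adhesion molecule of endothelial cells, had 325 UPM in Hulunbuir members and 27.7 in the rest (log2 3.55, interval 3.43 to 3.67), and 68.9 against 17.3 in Ujumqin (log2 1.99, interval 1.74 to 2.23). KDR, the receptor for VEGF, had 230 against 27.1 in Hulunbuir (log2 3.09) and 60.3 against 11.7 in Ujumqin (log2 2.37). PLVAP, a protein of endothelial pores, had 1514 against 229 in Hulunbuir (log2 2.73) and 286 against 94.7 in Ujumqin (log2 1.60). Among the 8 named genes of largest ratio in Hulunbuir were also STAB1, a scavenger receptor of sinusoidal endothelium (log2 3.89), CD93 (log2 3.22), ESM1 (log2 3.02) and DEPP1 (log2 2.72). Summed over the 14 endothelium markers in the files, members had 2185 UPM against 302 in Hulunbuir (log2 2.85, interval 2.81 to 2.90) and 443 against 132 in Ujumqin (log2 1.75, interval 1.66 to 1.85). The minimum level was reached by 7 markers in Hulunbuir, 4 of them only in members, and by 3 in Ujumqin, and all of these were at least 2-fold higher. The median over those compared in Hulunbuir, relative to all features, was log2 2.70, and 1.15 when the rest was weighted to the members' mix of clusters.

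In Hulunbuir 141 members (14.5%) lay in endothelium-like clusters, against 7.47% of the rest, and they held 93.9% of the members' endothelium marker UMIs and 29.7% of all their UMIs outside the MT- genes. In Ujumqin 26 members (1.73%, against 1.15% of the rest) held 85.0% of the marker UMIs. Outside these clusters the summed markers still had a ratio of 2.07 on the log2 scale in Hulunbuir (interval 1.89 to 2.25, 265 UMIs) and 1.15 in Ujumqin (interval 0.90 to 1.39, 139 UMIs). APOA1, the main protein of high-density lipoprotein, had 1813 UPM in Hulunbuir members and 203 in the rest (log2 3.16, interval 3.11 to 3.21), and 93.0% of its UMIs in members came from the endothelium-like clusters. In Ujumqin it had 1138 against 801 (log2 0.51), with 57.2% from those clusters. Genes of largest joint ratio in both libraries were HSPG2, the basement membrane proteoglycan perlecan (log2 4.02 in Ujumqin and 3.21 in Hulunbuir), JAG2, a Notch ligand (3.17 and 3.63), and STAB1 (2.502 and 3.89). The others were CD109 (2.49 and 2.62), the collagen gene COL5A1 (2.46 and 2.502), KDR, PLEC, a linker of the cytoskeleton (2.53 and 2.31), and FN1, which encodes fibronectin (2.29 and 2.33). HSPG2, JAG2 and CD109 rested on 22 to 47 UMIs in the members of each library. HSPG2, JAG2, STAB1, CD109, COL5A1 and PLEC were below the minimum level in the rest of both libraries and were compared through members only. None of them could have been called lower, so their shared direction followed from the minimum level. FN1 was below it in the rest of Ujumqin only, and KDR reached it in the rest of both libraries.

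Immediate-early genes, which dissociation and other stress switch on within minutes, had higher summed levels in members of both libraries, and so did chaperones of the endoplasmic reticulum (ER). The immediate-early list had 918 UPM against 584 in Ujumqin (log2 0.65, interval 0.59 to 0.72) and 904 against 475 in Hulunbuir (log2 0.93, interval 0.86 to 1.00). At least 2-fold higher were 7 of the 12 genes compared in Ujumqin and 7 of 10 in Hulunbuir, against 20.8 and 11.2% of all features, and 5 in each library reached the minimum only in members. JUN, a subunit of the AP-1 factor, had 389 UPM against 189 in Ujumqin (log2 1.04, interval 0.94 to 1.14) and 450.0 against 209 in Hulunbuir (log2 1.11, interval 1.01 to 1.20). JUND had log2 ratios of 3.00 and 1.68, BTG2 of 1.39 and 1.48, and CCN1 of 2.12 and 1.65. FOS, the partner of JUN, had log2 -0.49 in Ujumqin and 0.43 in Hulunbuir, and MYC 0.19 and -0.35.

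All 14 ER chaperones in the files were compared. In Hulunbuir each had a ratio above 1 and 4 were at least 2-fold higher, against 11.2% of all features. In Ujumqin 10 were above 1 and 3 at least 2-fold higher, the latter a share close to the 20.8% of all features there. The median log2 ratio of all features was 0.22 in Ujumqin and 0.029 in Hulunbuir, so more features were above 1 than below it. HSPA5, the ER chaperone BiP, had 970 UPM against 417 in Hulunbuir (log2 1.22, interval 1.15 to 1.28) and 390.2 against 129 in Ujumqin (log2 1.60, interval 1.495 to 1.70). HYOU1 had log2 ratios of 1.75 and 1.96, PDIA4 of 1.05 and 1.06, and HSP90B1 of 0.74 and 0.35. The summed list had log2 0.66 in Hulunbuir and 0.37 in Ujumqin. In Ujumqin, with the pair left out, its level was 753 UPM in barcodes at 0 to 2% and 3993 at 5 to 10%. The latter was above the 3035 of members at 10 to 20%, so the higher level was not particular to members. CRELD2 and MANF, which are also targets of the unfolded protein response, had log2 0.15 and 0.28 in Hulunbuir and -0.31 and -0.095 in Ujumqin, where MANF is above 0 without the pair in the total. The cytosolic heat shock list, for comparison, had summed log2 ratios of -0.31 in Ujumqin and -0.28 in Hulunbuir.

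Gene families of matrix and chromatin were looked at after the leading genes had been seen. Among collagens 7 of 14 compared in Ujumqin and 10 of 15 in Hulunbuir were at least 2-fold higher (summed log2 0.66 and 1.36), beside 20.8 and 11.2% of all features. Of these higher collagens 3 and 2 reached the minimum only in members. Among laminins, which build basement membranes, 4 of 5 were in each library (summed log2 1.68 in both), 1 of them through members only. Among integrins, the receptors for both, 3 of 4 and 6 of 8 were, of which 3 and 4 reached the minimum only in members. Histone genes differed between the libraries. In Ujumqin 10 of 12 compared were at least 2-fold higher, among them H1-4 with 209 UPM against 21.7 (log2 3.27, interval 3.13 to 3.41), H2BC18 (log2 2.93) and H2AC6 (log2 2.62). Of the 10, 5 reached the minimum only in members. In Hulunbuir 1 of 10 was. Of H1-4 UMIs in Ujumqin members, 88.1% came from the clusters made mostly of members. Features named U3, a small nucleolar RNA, summed to 364 UPM against 32.7 in Ujumqin (log2 3.48) and 366 against 120 in Hulunbuir (log2 1.60). Those named Metazoa_SRP, the RNA of the signal recognition particle, summed to 1124 against 214 (log2 2.39) and 649 against 283 (log2 1.19). Both symbols stand for many near-identical copies, 29 and 20 features, among which reads may have been split or lost, so only their sums are given.

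Genes for nuclear-encoded mitochondrial proteins did not share the direction of the mitochondrial genome, which the rule sets. Nuclear subunits of complex I summed to 5498 UPM in Ujumqin members and 6408 in the rest (log2 -0.22) and to 8004 against 9161 in Hulunbuir (log2 -0.19), with 0 of 30 called in either library. Nuclear subunits of ATP synthase had log2 -0.33 and -0.31, proteins of the mitochondrial ribosome -0.31 and -0.31, and mitochondrial import -0.29 and -0.29. Subunits of complexes II to IV had -0.19 and -0.12, and the last of these turned to 0.054 when the pair of features without a symbol was left out of the total; the others stayed below 0. Genes for expression of the mitochondrial genome had 0.0016 and -0.099, and mitophagy genes 0.23 and 0.074, and the signs of both lists changed with the total, either without the pair or with all UMIs in it. The subunits of complex I came to -0.040 and -0.021 without the pair, while the log2 ratios near 3 of the MT- genes are set by the rule.

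Cytosolic ribosomal proteins, the largest class of transcripts, made up 171414 UPM in Ujumqin members against 205514 (log2 -0.26) and 200850 against 257615 in Hulunbuir (log2 -0.36). None of the 45 compared reached a 2-fold ratio, and the log2 ratio was above 0 for 4 of them in Ujumqin and for 0 in Hulunbuir. Without the pair the summed ratios were -0.081 and -0.19. Over single barcodes, with the pair left out, ribosomal proteins had a median of 18.0% of UMIs in Ujumqin members and 23.3% in the rest, and of 21.5% against 25.9% in Hulunbuir. Glycolysis genes had summed log2 ratios of -0.37 in both libraries, and proteasome subunits, a family chosen later, -0.27 and -0.32. Metallothioneins, which bind zinc and copper, had -0.60 in Ujumqin, and rested on 18 UMIs in Hulunbuir. Genes of S phase had 0.56 in Ujumqin and -0.034 in Hulunbuir, and genes of G2/M phase -0.056 and -0.25. The integrated stress response had 0.12 and -0.045, p53 and apoptosis 0.060 and -0.37, hypoxia response -0.12 and 0.28, and the cytoskeleton -0.25 and 0.062. Without the pair or with all UMIs as the total, the sign changed for S phase in Hulunbuir, G2/M phase in Ujumqin, the integrated stress response in both libraries, p53 and apoptosis in Ujumqin, hypoxia response in both and the cytoskeleton in Hulunbuir. No gene of the list of nuclear-retained RNAs has a symbol in the files.

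**Figure D3:**
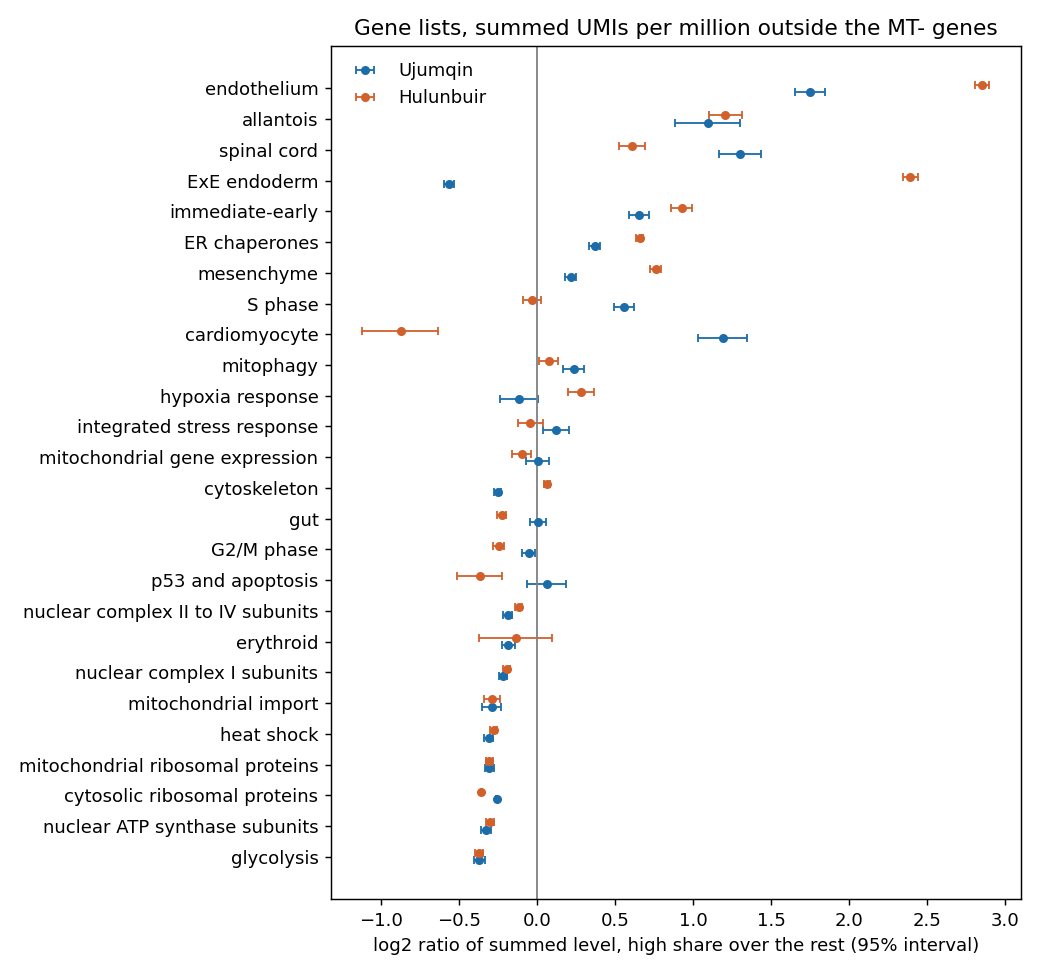
Log2 ratio of the summed level of each gene list, barcodes with high mitochondrial share over the rest of the same library, in UPM (points, with 95% counting intervals); lists with at least 100 UMIs in the members of both libraries are shown. Endothelium is far to the right in both libraries, and the ribosomal protein, nuclear ATP synthase and glycolysis lists sit between -0.5 and 0.

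Few named genes were lower in members. In Ujumqin the 8 of smallest ratio were ACTA2, smooth muscle actin, with 25.4 UPM against 71.5 (log2 -1.49, interval -1.91 to -1.11), the plasma protein genes SERPINA1 (log2 -1.33), TTR (-1.10) and APOM (-1.06), the lectin LGALS3 (-1.29), MTCH2 of the outer mitochondrial membrane (-1.17), FABP3 (-1.12) and the glutathione peroxidase GPX1, with 767 against 1662 (-1.12). In Hulunbuir POLR1D (log2 -1.25, 56.9 against 136), the WNT agonist RSPO3 (-1.15) and C14orf119 (-1.13) were among those of smallest ratio. So were genes that did not reach a 2-fold difference, CRABP2 (-0.95), MCUB (-0.94), RAB34 (-0.94) and ILF2 (-0.89). Among the 5 features lower in both libraries were LGALS3 (-1.36 in Hulunbuir, 16 UMIs in members), ACTA2 (-1.11 in Hulunbuir, 24 UMIs) and NT5C (-1.10 and -1.06). NT5C rested on 13 member UMIs in Ujumqin (interval -2.01 to -0.32) and 35 in Hulunbuir. Without the pair in the total, features at least 2-fold lower numbered 16 in Ujumqin and 19 in Hulunbuir, from 36 and 35. The ratios of SERPINA1, TTR and APOM in Ujumqin came to 0.054, 0.38 and 0.16 when the rest was weighted to the clusters of the members.

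Markers of embryonic cell types moved with the members in part. In Ujumqin the megakaryocyte list, with GP1BB and CLEC1B, had a summed log2 ratio of 1.80 (interval 1.66 to 1.93), spinal cord 1.30, allantois 1.10, mesenchyme 0.21, erythroid -0.19 and gut 0.0024, and those of mesenchyme and gut were below 0 with all UMIs as the total. Of the 7 megakaryocyte markers in the files 3 were compared, 1 of them through members only, and GP1BB and CLEC1B occurred in 52 and 48 members. With the pair left out, the megakaryocyte list was not particular to members. It had 317 UPM in barcodes at 5 to 10%, and 227, 307 and 282 in those at 10 to 20, 20 to 40 and 40% or more. In Hulunbuir allantois had 1.21, mesenchyme 0.76, spinal cord 0.61, caudal neuroectoderm -0.44, gut -0.23, erythroid -0.13 and trophoblast 1.65 (139 UMIs), and the megakaryocyte list had 0 UMIs in members. Of the 7 trophoblast markers in the files 1 was compared in Hulunbuir (log2 1.96), and a single barcode held 20.1% of the 139 UMIs. Single markers carried some of these sums. In Ujumqin KDR, the only allantois marker compared, held 126 of the 196 allantois UMIs in members. Spinal cord had 2 markers compared there, 1 of them through members only. In Hulunbuir, of the 3 spinal cord markers compared 0 were at least 2-fold higher and 1, NES, was above 0 (log2 0.73), with a median of -0.30. Of the 6 allantois markers compared in Hulunbuir 1, KDR, was at least 2-fold higher and 3 were above 0, with a median of 0.012. The Hulunbuir sum for gut was 0.11 (interval 0.083 to 0.14) outside the endothelium-like clusters, and that for erythroid, whose interval includes 0, was 0.039 without the pair in the total. Of the allantois UMIs in members, 56.6% in Ujumqin and 63.6% in Hulunbuir came from the endothelium-like clusters. Macrophage markers had 0.78 and 0.76, on 99 and 44 UMIs. In Ujumqin a single barcode held 19.2% of the 99. With the pair left out, the list there had 9.25 UPM in barcodes at 0 to 2%, 35.2 at 2 to 5% and 80.0 at 5 to 10%. Members at 10 to 20, 20 to 40 and 40% or more had 63.4, 36.6 and 31.4, so it was not particular to members. The other lists, notochord, neural crest, paraxial mesoderm and lateral plate and intermediate mesoderm, had between 1 and 261 UMIs in the members of a library. Single barcodes decided some values. In Ujumqin the member with the most MYH7 UMIs held 85.7% of 35, and the members with the most AHSG and AFP UMIs held 38.4 and 31.8% of theirs.

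Across bins of the mitochondrial share the levels did not all change at the limit. The percent of remaining UMIs on the pair went from 0.623, 0.988 and 2.38% below the limit (0 to 2, 2 to 5 and 5 to 10%) to 7.66, 17.9 and 40.6% above it (10 to 20, 20 to 40 and 40% or more) in Ujumqin. In Hulunbuir it went from 0.338, 0.991 and 1.66% to 4.81, 17.8 and 40.2%. The levels that follow leave the pair out of the total. Ribosomal proteins in Hulunbuir were lower from bin to bin, from 269615 UPM at 0 to 2% to 205056 at 40% or more. In Ujumqin they were lowest at both ends, with 162339 and 161332, and had 240378 at 5 to 10%. Endothelium markers in Hulunbuir had 146, 173 and 1065 UPM below the limit and 2029, 3619 and 2269 above it, so their level was also higher in the 1477 barcodes from 5 to 10% than in the bins below. In Ujumqin they had 563 at 5 to 10% and 612, 254 and 659 above the limit. ER chaperones had 5307 at 5 to 10% and 12545 at 20 to 40% in Hulunbuir. In Ujumqin they had 753, 3222 and 3993 below the limit and 3035, 4254 and 5115 above it. The bins of 40% or more hold 105 and 232 barcodes.

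**Figure D4:**
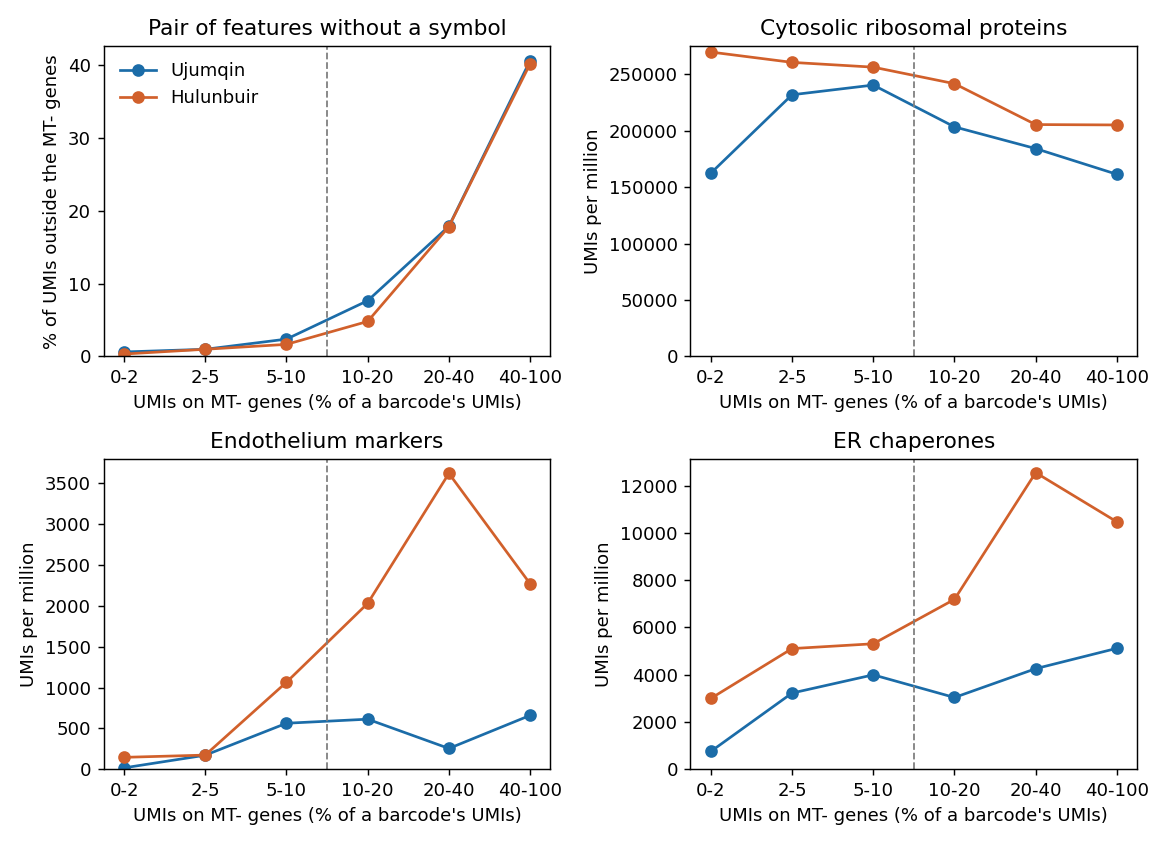
Levels in 6 bins of the percent of UMIs on MT- genes, for each library: the pair of features without a symbol as percent of UMIs outside the MT- genes, and cytosolic ribosomal proteins, endothelium markers and ER chaperones in UMIs per 1000000 UMIs without the MT- genes and the pair; the dashed line marks the limit of 10%. The pair climbs to about 40% in both libraries, while endothelium markers in Hulunbuir are higher from the bin of 5 to 10% on.

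Clustered without the MT- genes but with the pair, 74.9% of Ujumqin and 56.0% of Hulunbuir members lay in clusters made mostly of members, and 55.3 and 47.4% when the pair was left out too. Each library was clustered by itself, and names in -like rest on marker genes. In Ujumqin cluster 5 held 938 members among 1137 barcodes (82.5%, interval 80.2 to 84.7%), which is 62.2% of all members. Leading it, by fold against the median over other clusters, were the erythroid genes KLF1, HEMGN and ALAS2 beside AFP and SERPINA1, genes of plasma proteins, and 5 erythroid markers gave it the name erythroid-like. Cluster 16, which stayed unnamed, held 190 members among 252 barcodes (75.4%), and COL2A1, H1-4, H2AW, U3 and FBN2 led it. In Hulunbuir cluster 9 held 545 members among 576 barcodes (94.6%, interval 92.4 to 96.3%), 56.0% of all members, and was mesenchyme-like, with COL1A1, LUM, COL3A1, DCN and COL1A2 among its leading genes. The median UMI count of members in these clusters was 1127.5, 1187.5 and 1157. The pair had 121281, 77471 and 256242 UPM in these clusters, and it took part in the clustering. Left out, it gave a mostly member cluster of 635 among 728 barcodes and one of 198 among 261 in Ujumqin, the first again erythroid-like, and in Hulunbuir a mesenchyme-like cluster of 461 among 499.

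Outside the clusters that were mostly members, endothelium-like clusters had the highest share in both libraries. In Hulunbuir cluster 6 held 131 members among 635 barcodes (20.6%, interval 17.5 to 24.0%), with 9 endothelium markers, and the next, cluster 17, held 17 of 193 (8.81%, interval 5.22 to 13.7%). The intervals cover counting error only, and no test between clusters was run. Shallower clusters led by the same kind of genes had lower shares, the endothelium-like cluster 15 of Hulunbuir with 10 of 222 (4.505%) and the unnamed cluster 14 of Ujumqin, which PECAM1, ESM1 and PLVAP led, with 9 of 325 (2.77%). In Ujumqin cluster 19 held 26 of 194 (13.4%, interval 8.95 to 19.0%). The cardiomyocyte-like cluster 26 with 5 of 58 (8.62%, interval 2.86 to 19.0%) and cluster 10 with 51 of 609 (8.37%, interval 6.30 to 10.9%) had intervals that overlap with it. The members of cluster 6 had a median of 3036 UMIs against 18186.5 in the rest of the cluster, and those of cluster 19 had 5409 against 28201.5. The clusters with the lowest shares in Ujumqin were the large erythroid-like clusters 1 and 3, with 15 of 2315 (0.648%) and 10 of 1713 (0.584%), and the macrophage-like cluster 24 with 0 of 77 (exact interval up to 4.68%). When only the rest was clustered and each member was put with the most similar mean profile, 49.5% of Ujumqin members fell to an unnamed cluster led by SERPINA1, AFP, TTR and AHSG and 20.3% to an erythroid-like cluster. In Hulunbuir 28.1% fell to an unnamed cluster led by MYO3A, CDX2 and CDX4, and 14.9% to the endothelium-like cluster.

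**Figure D5:**
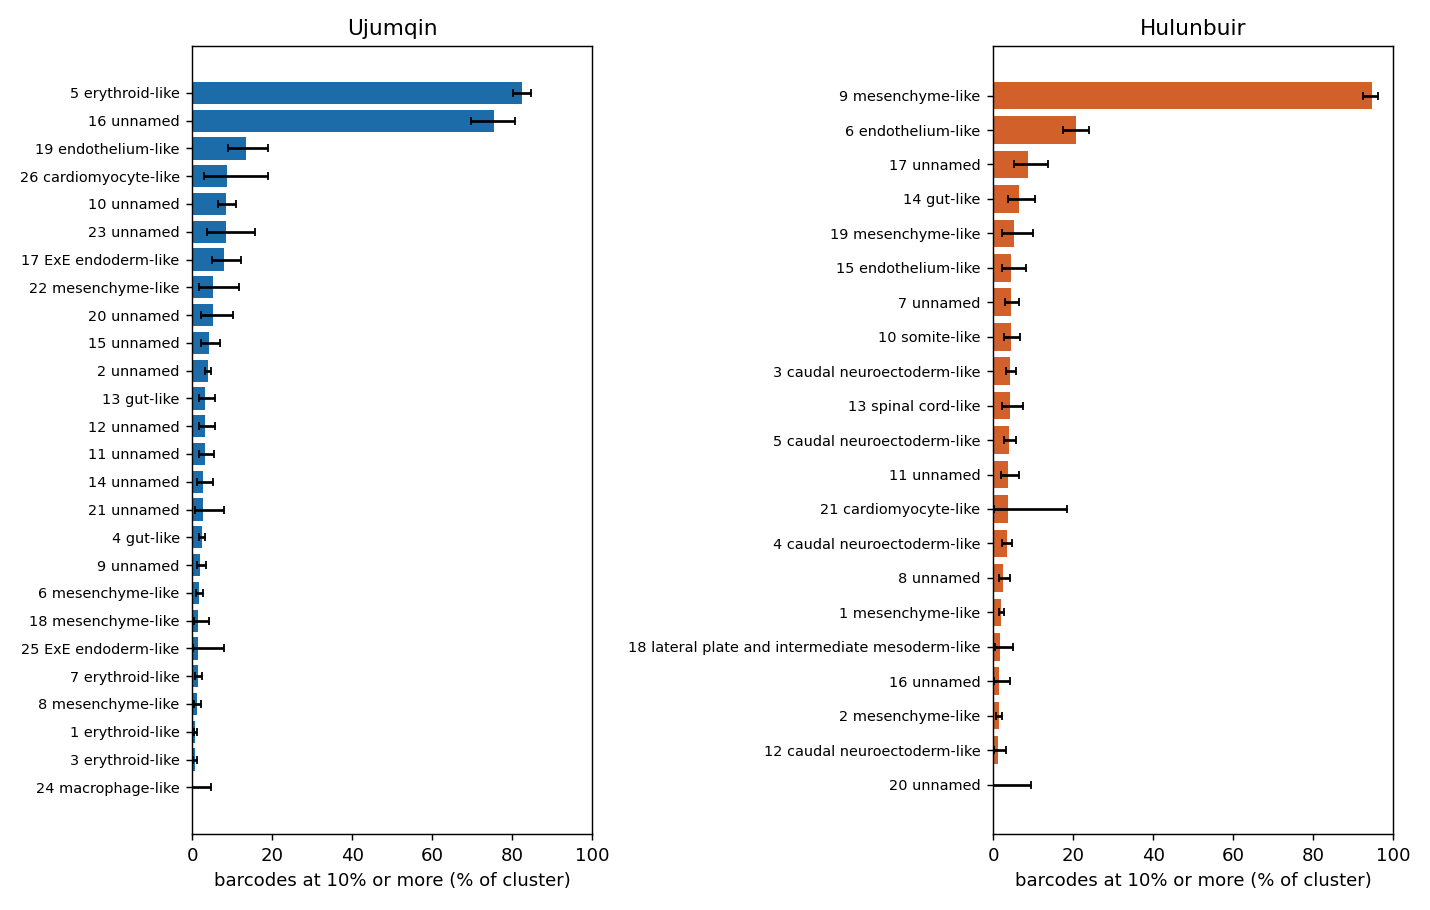
Percent of the barcodes of each cluster that had 10% or more of their UMIs on MT- genes (bars, with exact binomial 95% intervals), by library, with the cluster number and its name from marker genes. Clusters 5 and 16 in Ujumqin and 9 in Hulunbuir stand above 75%, and the endothelium-like clusters 19 and 6 come next.

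Members and the rest were also compared inside clusters that held at least 50 of each. A feature was compared when its level in either group reached that of 20 UMIs in the group with the smaller total. The counts of higher features below were not split by whether this level was reached only in members. In the endothelium-like cluster 6 of Hulunbuir, 197 of 2803 features (7.03%) were at least 2-fold higher in its 131 members than in its 504 others, and 42 (1.498%) lower. Its endothelium markers had a summed log2 ratio of 1.24 (interval 1.19 to 1.29), with 5 of 6 compared at least 2-fold higher. CXCR4, a chemokine receptor, had 217 UPM against 23.3 (log2 3.22, interval 2.89 to 3.53). The laminin genes LAMB2 and LAMA5 had log2 2.58 and 2.53, MECOM 2.35 and STAB1 2.26. The minimum level in cluster 6 was 34.7 UPM. CXCR4, LAMB2, LAMA5 and MECOM were below it in the others, so they were compared through members only, and STAB1 was not. ER chaperones had a summed log2 of 0.72, immediate-early genes 0.74 and cytosolic ribosomal proteins -0.24. PDLIM1 (log2 -2.05), MCUB, a regulator of the mitochondrial calcium channel (-1.83), and SRM, spermidine synthase (-1.30), were among the lowest. PDLIM1 and MCUB rested on 7 and 11 UMIs in these members, and SRM on 57. The pair was at 8.27% of remaining UMIs in these members against 1.11%.

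In cluster 5 of Ujumqin 105 of 1524 features (6.89%) were at least 2-fold higher in the 938 members than in the 199 others, and 5 (0.328%) lower. The mesenchyme markers had a summed log2 ratio of 2.48 there (interval 2.24 to 2.73), with 5 of 5 compared higher, and the erythroid markers -0.27. VCAN, a matrix proteoglycan, had 101 UPM against 6.51 (log2 3.96, interval 2.37 to 6.26, from 109 and 3 UMIs), COL1A2 317 against 39.1 (log2 3.02) and COL1A1 396 against 56.4 (log2 2.81). The minimum level in cluster 5 was 43.4 UPM, so VCAN and COL1A2 were compared through members only, and COL1A1 was not. Cluster 5 thus held erythroid and mesenchyme transcripts side by side. In cluster 16, 125 of 1225 features (10.2%) were higher in the 190 members than in the 62 others and 87 (7.10%) lower, with 3 of 5 immediate-early genes higher (summed log2 1.26). Clusters 10 and 2 of Ujumqin had 23 and 17 of 447 and 4 and 2 of 307 features called higher and lower, at sums of 69433 and 57786 UMIs in their members. Cytosolic ribosomal proteins had a summed log2 of -0.072 in cluster 5 and -0.30 in cluster 16.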

How the data were processed

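The authors deposited UMI counts per gene and barcode, not normalized, from 10x Genomics 3′ libraries; reads were mapped to Oar_rambouillet_v1.0 with Cell Ranger (5.0.0 per the file headers, 3.1.0 per the submitters' processing notes). Of 26478 features, 9808 have no symbol; a symbol given to several features (83) was taken at its first feature. No barcode in the files has under 500 UMIs. Free RNA was not subtracted, and doublets were neither called nor removed.

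Ratios are sums over members against sums over the rest, with exact conditional binomial 95% intervals; shares have exact Clopper-Pearson intervals. They cover counting error only. Features with 10 UMIs per 1000000 outside the MT- genes in either group were compared and called at a fold of 2. Named genes were the 8 of largest and smallest ratio with a symbol and 50 per 1000000, the 8 of largest joint ratio called the same way in both libraries, each MT- gene, and from each list the 2 largest and 2 smallest at 10 per 1000000; others were chosen after their values were seen. A gene the rule names is not reported here. The 17 marker lists and 20 function lists, and the members, were chosen with earlier results of these data known.

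Barcodes were scaled to 10000 UMIs and log-transformed without MT- genes; 2000 variable genes gave 30 components, 20 neighbours and Leiden clusters at resolution 1. Names followed a rule made once clusters were known: a marker had to reach 10% of cells, 3 times the median over other clusters and 10% of the highest cluster, and a name needed 3 markers, more than any other list, and 1 among the 10 leading genes. The minimum level within clusters, set by 20 UMIs in the smaller total, was also added then. With 1 library per breed no test was run. Versions were Python 3.11.15, scanpy 1.11.5, leidenalg 0.10.2, scipy 1.17.1 and matplotlib 3.10.9. Of the alternatives, another minimum of genes, limit, total, floor, weighting, thinning and resolution were set beforehand, and those without the pair or the endothelium-like clusters were added after the data were seen.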

Additional observations from a re-analysis of the deposited data

Results flagged for a closer look

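The summed level of some marker lists was higher in the members of one library and lower in those of the other. Extraembryonic (ExE) endoderm markers had a log2 ratio of -0.57 in Ujumqin (interval -0.60 to -0.54) and 2.39 in Hulunbuir (interval 2.34 to 2.44). Without APOA1 the list had -0.82 and -0.55, so the opposite direction rested on that gene. The median of the list relative to all features was -0.82 in Ujumqin and 0.69 there when the rest was weighted by cluster, so the direction in Ujumqin also depended on the mix of clusters in the rest. Cardiomyocyte markers had 1.19 in Ujumqin (340 UMIs) and -0.88 in Hulunbuir (145 UMIs), and 43.2% of the Ujumqin UMIs came from a single barcode. Somite markers had 1.38 in Ujumqin and -1.53 in Hulunbuir, on 19 and 16 UMIs. With 1 library per breed, these differences were not tested.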

How the results depend on the processing

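No paired analysis was possible because each breed has 1 library and no test was run. For Ujumqin and Hulunbuir, the percent of barcodes that were members was 3.35 and 4.42 at a minimum of 500 genes, 14.6 and 10.5 with no minimum, 17.2 and 23.2 at a limit of 5%, 4.46 and 6.57 at 20%, and 12.7 and 11.8 with the pair counted as mitochondrial. Features at least 2-fold higher numbered 1403 and 1136 for 20% or more against under 5%, 474 and 234 with all UMIs as the total, 174 and 118 at 50 per 1000000 and 3513 and 2418 at 1 per 1000000. They were 1425 at 500 genes and 519 weighted by cluster in Ujumqin, and 892 without the pair in Hulunbuir. Features at least 2-fold lower numbered 203 and 354 for 20% or more against under 5%, 131 and 187 with all UMIs as the total, 58 and 77 without ribosomal protein and erythroid genes in the total, 107 and 211 as means of single barcodes, 11 and 4 at 50 per 1000000, 248 and 383 at 1 per 1000000, and 16 and 19 without the pair. In Hulunbuir they were 61 weighted by depth, 131 weighted by cluster and 53 without the endothelium-like clusters. The call rule is thus sensitive to the total and the floor. The members in clusters mostly of them, 74.9% and 56.0%, were 60.5% at resolution 0.5 in Ujumqin, 15.3 and 0% when put with the nearest cluster of the rest, and 55.3 and 47.4% without the pair. The share in Ujumqin endothelium-like clusters was 8.70% with the nearest cluster. Thinned to 1000 UMIs in place of 500, members had 96.6 and 99.8% of the genes of the rest, from 89.6 and 94.0%. At 20% or more against under 5% the total gained by genes with a larger part of the mitochondrial mix was 4.36 and 3.26 percentage points. The median of the cardiomyocyte list in Ujumqin, relative to all features, turned to -0.63 as the mean of single barcodes, -0.58 weighted by depth and -0.032 weighted by cluster. SERPINA1, TTR and APOM in Ujumqin turned to 0.054, 0.38 and 0.16 weighted by cluster. List medians of under 2-fold changed sign too. Relative to all features, that of ExE endoderm in Ujumqin went from -0.82 to 0.0027 as the mean of single barcodes and 0.69 weighted by cluster, and that of gut in Hulunbuir from -0.21 to 0.059 weighted by cluster and 0.12 without the endothelium-like clusters. That of endothelium in Hulunbuir went from 2.70 to 1.15 weighted by cluster. The cause of these changes was not tested, apart from the floors, which change the number of features compared. Counts under about 20 UMIs limit what can be said of single genes.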
